A study of Mus musculus with 2 samples.

Results

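The 10 genes described here serve protein folding in the endoplasmic reticulum (ER) and were followed across the cell types of 2 single-cell RNA libraries of mouse liver. The genes are Hspa5, Dnajb9, Dnajc3, Sdf2l1, Hsp90b1, Calr, Canx, Pdia4, Pdia6 and Herpud1, taken by symbol as 10 of the 32285 genes in the deposited matrices, where each symbol had 1 row. The library labelled Hep-ADKTg (Tg) came from mice that overexpress adenosine kinase (Adk), the enzyme that phosphorylates adenosine, in hepatocytes under the albumin promoter. The library labelled Hep-ADKWT (WT) came from control mice. Mice of both genotypes were males of 5 months on standard chow with no further treatment, and the cells were liver non-parenchymal cells obtained with collagenase. Each genotype is 1 library, so no difference below has a replicate check, and no test across animals was possible. Nothing in the labels tells if 1 mouse or several gave each library.

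Secreted and membrane proteins enter the ER unfolded. Hspa5 (BiP, GRP78) is the Hsp70 chaperone that binds them, and it also holds the stress sensors of the unfolded protein response in check. When unfolded protein accumulates, that response raises the transcription of chaperones and of the machinery that returns misfolded proteins to the cytosol for degradation. Hepatocytes secrete most plasma proteins and plasma cells secrete immunoglobulin, and both are known for an extensive rough ER.

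The stress response acts on the promoters of these genes through short elements. The ER stress response element (ERSE: CCAAT, 9 further bases, CCACG) and the variant ERSE-II (ATTGG, 1 further base, CCACG) were searched on both strands of the 250 bases before the RefSeq start of each gene (GRCm38.p6). ERSE was found in 6 of the 10 genes, against 37 of 32851 promoter windows (0.113%). ERSE-II was found in Herpud1, and in 10 of all windows (0.0304%). The sites found are shown because they are the sequence feature that most of these genes share. Each line gives 30 bases, read 5′ to 3′ on the strand that carries the element, with the letters of the element in capitals.

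Hspa5 (chr2:34772020-34772049, + strand): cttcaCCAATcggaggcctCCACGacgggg

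Dnajc3 (chr14:118937822-118937851, + strand): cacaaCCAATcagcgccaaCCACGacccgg

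Hsp90b1, distal site (chr10:86705632-86705661, - strand): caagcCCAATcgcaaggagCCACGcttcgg

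Hsp90b1, proximal site (chr10:86705528-86705557, + strand): actcaCCAATcgtgcctcaCCACGcactct

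Calr (chr8:84847070-84847099, + strand): atgggCCAATgagggtcgaCCACGcgttgt

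Canx (chr11:50325794-50325823, - strand): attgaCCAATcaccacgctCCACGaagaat

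Pdia6 (chr12:17266486-17266515, + strand): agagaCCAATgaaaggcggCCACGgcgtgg

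Herpud1 (chr8:94386372-94386401, + strand): cgctgATTGGgCCACGttggacactgacct

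Counted from the RefSeq start, the elements lay at -65 to -47 in Hspa5, -105 to -87 in Dnajc3, -162 to -144 in Calr, -145 to -127 in Canx, -98 to -80 in Pdia6 and -52 to -42 in Herpud1. Hsp90b1 held elements at -212 to -194 and at -107 to -89. In Hsp90b1 the elements stood on opposite strands, and in Calr the element stood on the strand opposite to transcription. Neither spelling was found in the windows of Pdia4, Sdf2l1 and Dnajb9. CCAAT itself occurred in the windows of 10 of the 10 genes and in 33.8% of all windows, and TATAAA in 0 of the 10 and in 12.4%. A match of letters describes the sequence and does not show that a factor binds there.

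The Tg library held 96481752 UMIs (unique molecular identifiers, 1 per captured RNA) in 17462 barcodes, and the WT library 97135016 in 15663. After filtering, 14445 Tg cells with a median of 2783 UMIs and 12478 WT cells with a median of 4807 UMIs remained. In these, 58 barcodes occurred in both libraries, and leaving them out moved none of the ratios of the 10 genes in 12 cell classes by more than its counting interval. Although labelled non-parenchymal, 21.2% of the Tg cells and 11.2% of the WT cells carried hepatocyte markers and were placed in the hepatocyte-like class. Over all barcodes, Adk stood at 359 UMIs per 1000000 UMIs (CPM) in Tg and 89.8 CPM in WT. Within hepatocyte-like cells it had 575 CPM in Tg and 713 CPM in WT, and in those with at least 20000 UMIs 516 and 478 CPM. The labels do not describe the 3′ end of the transgene, which a 3′ tag count may or may not include, so these counts check neither label, and Tg and WT below name the libraries as labelled. CPM below are taken over the UMIs of the class and library. Ranges in brackets are 95% intervals for counting error only.

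Hspa5 was highest in plasma cell-like cells, at 1122 CPM (1064–1183) in Tg and 1182 CPM (1160–1204) in WT. Next in Tg came fibroblast-like (622), hepatocyte-like (582), plasmacytoid dendritic cell (pDC)-like (578) and Kupffer cell-like cells (553), whose intervals overlapped from one class to the next. In WT the next classes were pDC-like (501), fibroblast-like (486) and Kupffer cell-like cells (479), again with overlapping intervals, and the pooled hepatocyte-like cells stood lower, at 328 CPM. Lymphocyte-like and B cell-like cells had 334 and 287 CPM in Tg and 271 and 218 CPM in WT. Neutrophil-like cells had 294 CPM in Tg and 210 CPM in WT. Erythroid cell-like cells, which have shed most of their ER, were lowest, with 55.9 CPM in Tg and 52.5 CPM in WT.

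The Hspa5 co-factors differed in where they were high. Dnajb9 (ERdj4) and Dnajc3 (p58IPK) are J-domain proteins that bring substrates to Hspa5 and drive its cycle, and Sdf2l1 works in the ER with Hspa5 and its J-domain partners. Sdf2l1 was concentrated in plasma cell-like cells, at 317 CPM in Tg and 335 CPM in WT, and the next class had 115 CPM in Tg (monocyte-like) and 107 CPM in WT (Kupffer cell-like). Dnajc3 was spread more evenly. It had 383 CPM in plasma cell-like and 344 CPM in liver sinusoidal endothelial cell (LSEC)-like cells of Tg, with overlapping intervals, and 430 and 323 CPM in WT, whose intervals were apart. Dnajb9 had 137 CPM in plasma cell-like cells of Tg and 91.8 CPM in those of WT, and 71.7 or less and 77.8 or less in the other classes.

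Among the client-binding chaperones, Hsp90b1 (GRP94), the Hsp90 protein of the ER, had 2973 CPM in plasma cell-like cells of Tg and 3376 CPM in those of WT. LSEC-like cells came next, with 1259.8 CPM in Tg and 1160.2 CPM in WT. Calr and Canx are lectins that hold glycoproteins during folding, Calr in the lumen and Canx in the membrane. Calr was highest in hepatocyte-like cells in Tg (901 CPM, against 722 in plasma cell-like cells) and in plasma cell-like cells in WT (1061 CPM, against 571 in hepatocyte-like cells). Canx went against the others: LSEC-like cells were highest in both libraries, with 502 CPM in Tg and 487 CPM in WT, while plasma cell-like cells had 123 and 165 CPM. Canx was also high in vascular endothelial cell-like cells (396 CPM in Tg, 421 in WT) and fibroblast-like cells (381 and 405).

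The disulfide isomerases Pdia4 and Pdia6, which make and rearrange disulfide bonds, were highest in plasma cell-like cells of both libraries. Pdia4 had 574 CPM there in Tg and 582 CPM in WT, and the next class had 147 CPM in Tg (hepatocyte-like) and 139 CPM in WT (fibroblast-like). Pdia6 had 382 CPM in Tg and 509 CPM in WT, with 288 in LSEC-like cells of Tg and 259.5 in fibroblast-like cells of WT next. Herpud1 is a membrane protein of ER-associated degradation. Its order differed between the libraries: plasma cell-like cells led in Tg at 495 CPM, apart from hepatocyte-like cells at 417 CPM, while in WT hepatocyte-like cells at 228 CPM and plasma cell-like cells at 222 CPM had overlapping intervals. The other named classes lay at 238 CPM or less in Tg and 196 CPM or less in WT for Herpud1. In all, 7 of the 10 genes were highest in plasma cell-like cells in both libraries, the exceptions being Calr, Canx and Herpud1.

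**Figure D1:**
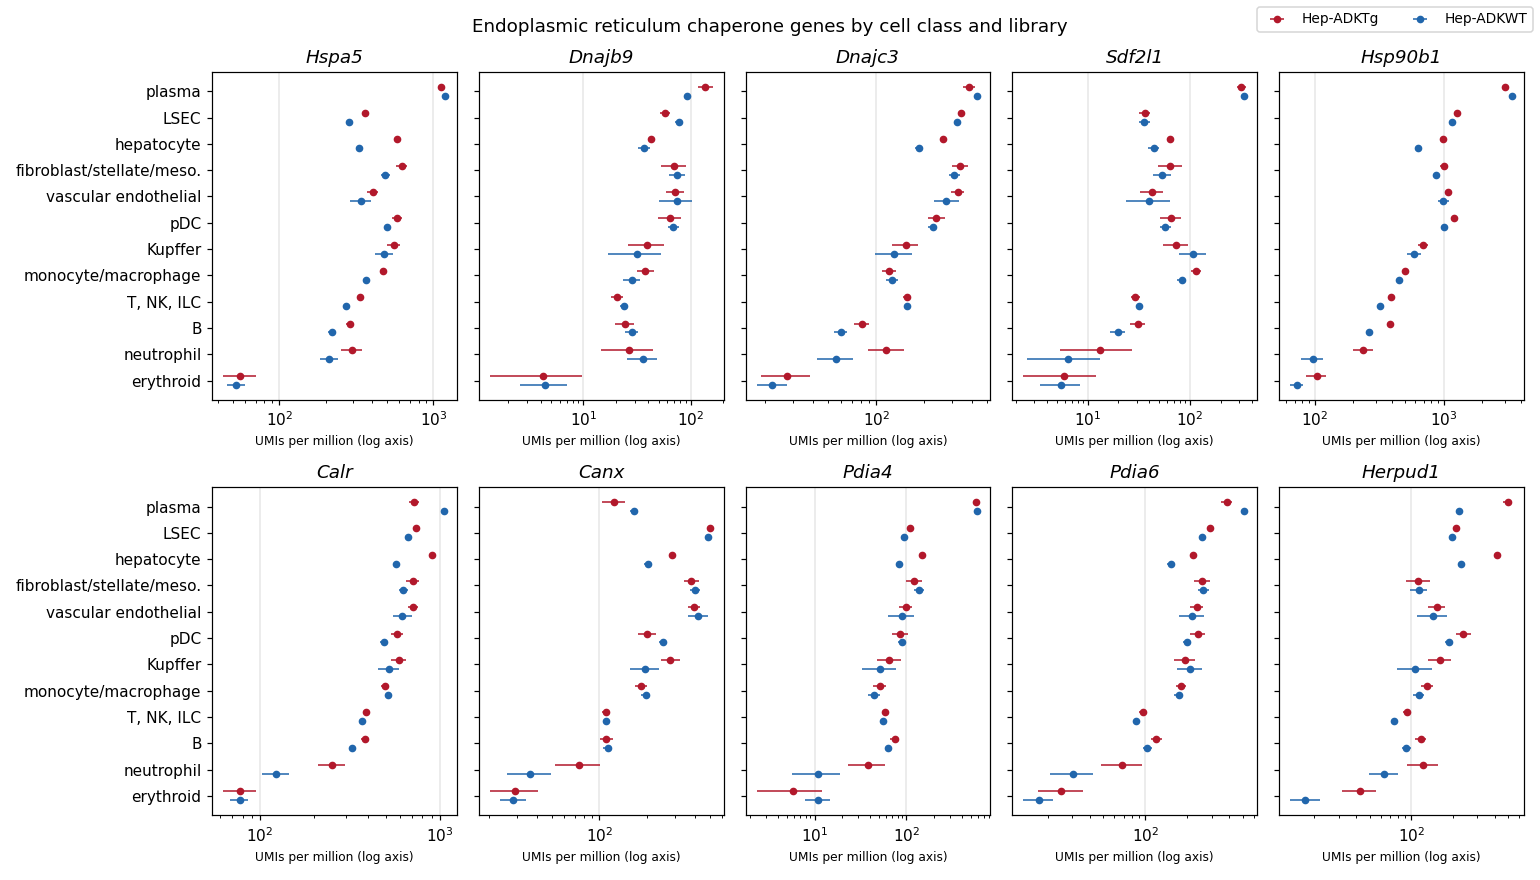
UMIs per 1000000 UMIs of the class (CPM, log axis) of the 10 genes in 12 cell classes of the Tg library (red, upper point of each row) and the WT library (blue), with exact 95% Poisson intervals that cover counting error only. Plasma cell-like cells stand to the right in most panels (Hsp90b1 2973 and 3376 CPM), LSEC-like cells lead for Canx (502 and 487 CPM), and erythroid cell-like cells lie to the left.

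Set against B cell-like cells, the cells that plasma cells develop from, 9 of the 10 genes were at least 1.5-fold higher in plasma cell-like cells in both libraries. Of all genes with at least 50 UMIs in the pair of classes, 6.06% in Tg and 14% in WT passed that fold upward, and the median gene was at a log2 ratio of -1.11 in Tg and -0.60 in WT. Sdf2l1 stood at 317 CPM in plasma cell-like and 30.8 CPM in B cell-like cells of Tg, a ratio of 10.3 (8.41–12.7), and at 335 and 19.7 CPM in WT, a ratio of 17.1. Hsp90b1 was 7.79-fold higher in Tg and 12.8-fold in WT, Pdia4 7.68-fold and 9.14-fold, and Hspa5 3.91-fold and 5.42-fold. Canx was the exception, with 123 CPM in plasma cell-like and 110.4 CPM in B cell-like cells of Tg (1.11-fold) and 165 and 113 CPM in WT (1.46-fold). Against a total without mitochondrial, haemoglobin and immunoglobulin genes Canx was 2.22-fold higher in both libraries, and 10 of the 10 genes were past the fold. The clusters were made from all genes, these included, so the difference is a description. Leaving the ER genes out of the genes used for clustering gave the same counts.

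Other genes of the pathway followed in part. Of the other folding factors, 14 of 22 measured genes in Tg and 17 of 22 in WT were at least 1.5-fold higher in plasma cell-like than in B cell-like cells, such as Creld2 (443 against 15.8 CPM in Tg, 357 against 16.3 in WT), an ER protein of the stress response. Of the degradation genes, 10 of 17 in Tg and 12 of 17 in WT passed, Derl3 with 233 against 3.88 CPM in Tg and 299.5 against 2.55 CPM in WT. Of the genes of translocation into the ER and of N-glycosylation, 17 of 22 in Tg and 18 of 22 in WT passed. Of the stress sensors and transcription factors, 3 of 9 in Tg and 5 of 10 in WT did. Xbp1, the transcription factor that plasma cells need for secretion, was among them at 971 against 49.3 CPM in Tg and 1095 against 47.0 in WT. Of the heat shock genes of the cytosol and mitochondria, 1 of 10 passed in Tg and 0 of 7 in WT.

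Between the libraries, the plasma cell-like cells (55 in Tg, 310 in WT, median 22510 and 28054 UMIs) differed chiefly in Herpud1. It had 608 UMIs, or 495 CPM (456–536), in Tg and 2064 UMIs, or 222 CPM (212–232), in WT, a ratio of 2.23 (2.03–2.44). Per cell, the median was 3.39 UMIs per 10000 in Tg (quartiles 2.46 and 5.99) and 1.55 in WT (0.817 and 2.96), so the middle ranges of the cells overlapped. Herpud1 was the only 1 of the 10 genes past 1.5-fold upward, as were 4.25% of all genes, and 0 were past it downward, as were 47.9%. Dnajb9, with 137 CPM (117–159) in Tg and 91.8 CPM (85.7–98.2) in WT, reached 1.49-fold. The other 8 genes were lower in Tg, from 574 against 582 CPM for Pdia4 (a ratio of 0.986) to 722 against 1061 CPM for Calr (0.680).

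That split depends on the total. Immunoglobulin transcripts took 50.6% of the UMIs of these cells in Tg and 35.5% in WT, and the median log2 ratio over all genes was -0.56. Against a total without mitochondrial, haemoglobin and immunoglobulin genes, 7 of the 10 genes were higher in Tg and Calr, Canx and Pdia6 were lower, while Herpud1 was at 2.87 (2.62–3.15) and Dnajb9 at 1.92 (1.62–2.27). On that scale 2 of the 10 genes were past 1.5-fold upward, against 8.04% of all genes, and 0 downward, against 24.9%. Hspa5, with 1122 CPM in Tg and 1182 in WT on the full total, had 2377 and 1943 UMIs per 1000000 on this one. Thinning each cell to 1000 UMIs turned Dnajb9 to a log2 ratio of -0.23. The median cell held only 2 UMIs of Dnajb9 in each library before thinning, so that value rests on few UMIs. Herpud1 kept its direction under each of the 15 alternatives run, at log2 ratios of 1.06 to 1.61. Among these, dropping the minimum of UMIs cannot change a ratio. One Tg cell held 22.7% of the Hspa5 and 15.4% of the Hsp90b1 UMIs of its class. Without the cell of most UMIs of the 10 genes in each library, the log2 ratio of Hspa5 was -0.39 and that of Herpud1 1.06.

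**Figure D2:**
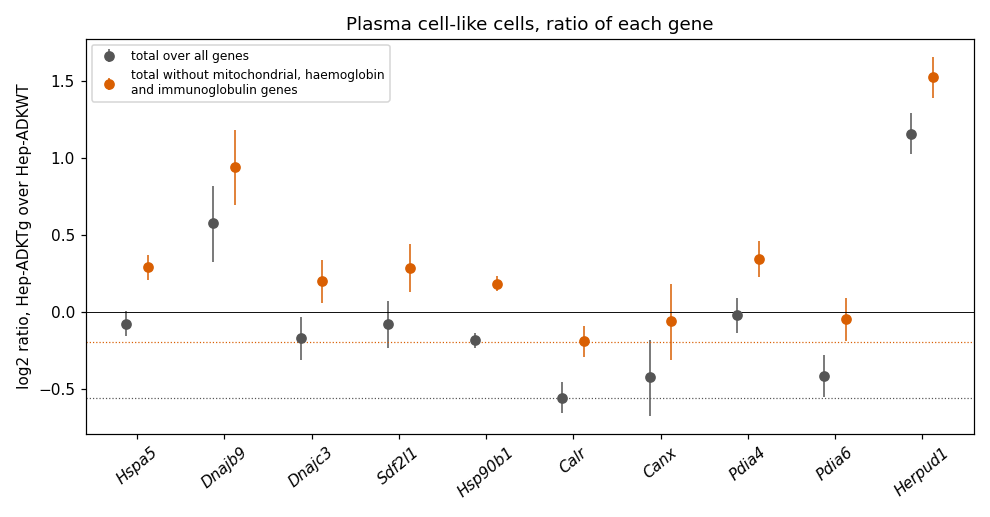
Log2 ratio, Tg over WT, of the 10 genes in plasma cell-like cells, against the total over all genes (grey) and against the total without mitochondrial, haemoglobin and immunoglobulin genes (orange), with 95% conditional binomial intervals for counting error only. Dotted lines mark the median of all genes on each scale, and Herpud1 stands highest on both (1.16 and 1.52).

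Genes known to be induced within minutes of cell stimulation also differed in these cells. Of 8 immediate early genes measured, 7 were higher in Tg plasma cell-like cells, 5 past 1.5-fold, with Jun at 357 CPM in Tg and 138 in WT and Egr1 at 57.0 and 24.3. Ppp1r15a, which ends the translational block of the stress response, had 63.5 CPM in Tg and 33.9 in WT. Of the degradation genes, the group Herpud1 belongs to by function, 3 of 17 were higher and 14 lower in Tg, against 14.1% of all genes higher on the same total, with Edem1 at 352 and 513 CPM. Their part in the Herpud1 difference was not tested.

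In the pooled hepatocyte-like cells (3058 in Tg, 1402 in WT), 10 of the 10 genes were higher in Tg and 5 were past 1.5-fold, as were 5.86% of all genes, while 20.7% of all genes were past it downward. Herpud1 had 417 CPM (410–424) in Tg and 228 CPM (216–240) in WT, a ratio of 1.83 (1.73–1.93). Hspa5 had 582 CPM in Tg and 328 in WT, Pdia4 147 and 83.6, Calr 901 and 571, and Hsp90b1 982 and 629. After thinning each cell to 1000 UMIs, 31.9% of Tg and 10.35% of WT hepatocyte-like cells had a UMI of Hspa5, and 44.7% and 17.4% one of Hsp90b1 (59.8% and 22.2%, and 71.8% and 32.4%, before thinning). The same thinned shares in erythroid cell-like cells, taken as a level of background, were 7.37% in Tg and 5.22% in WT for Hspa5 and 12.4% and 6.96% for Hsp90b1. The thinning left out 142 Tg and 484 WT hepatocyte-like cells that were shallower.

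The difference was not the same at all depths. Among cells of 500 to under 1000 UMIs (142 in Tg, 484 in WT) the 10 genes summed to 2728 CPM in Tg and 860 CPM in WT. The sums were 2353 and 810.4 CPM at 1000 to under 2000 UMIs, 1967 and 718 CPM at 2000 to under 5000, and 2897 and 1090 CPM at 5000 to under 10000. At 10000 to under 20000 UMIs, where WT had only 30 cells, they were 4149 and 1655 CPM. At 20000 UMIs or more (799 and 68 cells) they were 4148 in Tg and 3878 in WT, close together. Over the cells under 5000 UMIs, 9 of the 10 genes were past 1.5-fold upward, against 14.3% of all genes, with a median log2 ratio of 1.49 against -0.16 over all genes. In these shallow cells other RNAs differed as well. The nuclear RNA Neat1 had 464.5 CPM in Tg and 66.0 in WT, and Malat1, also nuclear, 8224 and 1958. Within cluster 1, described below, Neat1 was nearly equal and Malat1 was lower in Tg. Neat1 was the leading gene of cluster 31, a part of the hepatocyte-like class with 77 Tg and 12 WT cells (medians 3563 and 1899.5 UMIs). Of the secreted proteins, the fibrinogen chain Fgb had 2869 and 815 CPM, the lipoprotein Apob 1283 and 447, and Alb 14409 and 6360. Mitochondrial genes summed to 22481 CPM in Tg and 14090.1 in WT, while the cytosolic proteins Rgn and Gsta3 ran the other way, with 1348 and 2668 CPM and 1411 and 3134 CPM. Their part in the difference was not tested. In the deepest range 0 of the 10 genes were past 1.5-fold, against 5.75% of all genes upward and 7.67% downward, with a median log2 ratio of 0.05 against -0.04.

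**Figure D3:**
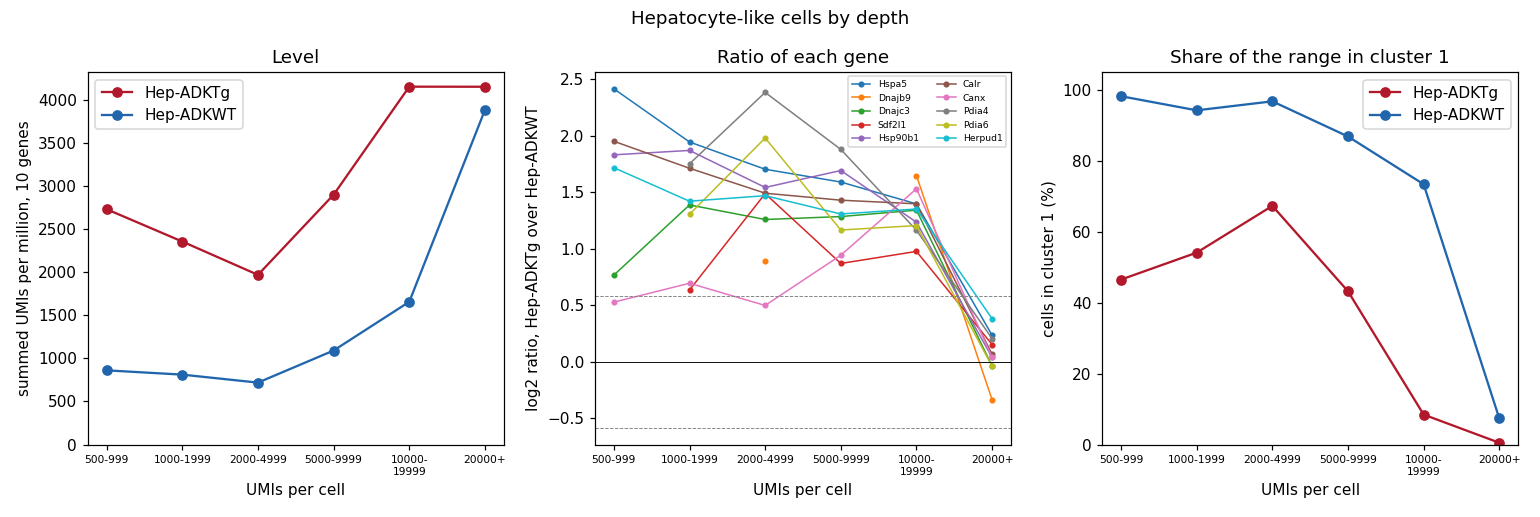
Hepatocyte-like cells of Tg (red) and WT (blue) by UMIs per cell: the summed CPM of the 10 genes (left), the log2 ratio Tg over WT of each gene with at least 50 UMIs (middle, dashed lines at 1.5-fold), and the percentage of cells in cluster 1 (right). The sums differ at 500 to under 1000 UMIs (2728 and 860 CPM) and nearly meet at 20000 UMIs or more (4148 and 3878 CPM), where few cells of either library are in cluster 1.

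In those deepest cells the genes were not alike. Herpud1 remained higher in Tg, at 436 CPM in Tg and 335 CPM in WT, a ratio of 1.30 (1.22–1.39), with a median per cell of 4.23 UMIs per 10000 in Tg (quartiles 3.32 and 5.34) and 3.25 in WT (2.39 and 4.25). Hspa5 had 628 CPM in Tg and 534 in WT (1.18, 1.12–1.24), and Pdia4 152 and 132 (1.15, 1.04–1.28). The lectins and Hsp90b1 barely differed: Calr had 952 and 910.4 CPM, Canx 311 and 303, and Hsp90b1 1049 and 1022 (1.03, 0.989–1.06). Dnajc3 had 281 CPM in Tg and 289 in WT and Pdia6 229 and 236, both with intervals that include 1. Dnajb9 was lower in Tg, at 44.9 CPM against 56.8 CPM in WT (0.791, 0.677–0.929). None of these ratios reached 1.5, and the interquartile ranges over cells overlapped between the libraries for each gene.

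Beyond these genes, the deepest hepatocyte-like cells had Selenos, a degradation factor in the ER membrane, at 130.1 CPM in Tg and 86.6 CPM in WT (a log2 ratio of 0.59), and Dad1, a subunit of the N-glycosylation enzyme, at 226 and 159. Of 17 degradation genes 8 were higher and 9 lower in Tg, and of 11 stress sensors and transcription factors 3 were higher and 8 lower, with Atf4 at 34.7 CPM in Tg and 49.0 in WT. Of all genes 44.99% were higher in Tg. Beside them stood markers of other cells in the same cells: those of plasma cells summed to 311 CPM in Tg and 1595 in WT (8 of 8 lower in Tg), those of B cells to 6.70 and 71.9 (8 of 8 lower), those of T cells to 14.3 and 55.9 (8 of 8 lower), and those of erythroid cells to 265 and 569 CPM. Their part in the Herpud1, Hspa5 and Dnajb9 differences was not tested. Plasma cell markers, which were lower in Tg here, mark the class in which 7 of the 10 genes were highest in both libraries. Hspa5 and Dnajb9 are among these 7, and Herpud1 is not.

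The clusters within the class had distinct levels of these genes, and the libraries filled them unequally. Cluster 1 held 1211 Tg and 1274 WT cells with medians of 1917 and 1318 UMIs, and cluster 10, the deepest, 819 and 72 cells with medians of 32503 and 43188 UMIs. Hspa5 had 641 CPM in cluster 10 and 139 CPM in cluster 1 of Tg, a 4.60-fold difference, and 570.2 and 56.7 CPM in WT, a 10.1-fold difference. Hsp90b1 had 1081 and 272 CPM in Tg and 1094 and 119 CPM in WT. Sdf2l1 differed least, at 67.0 and 44.96 CPM in Tg and 59.4 and 27.1 CPM in WT. Its ratio of 1.49 in Tg was the only one under 1.5, so 9 of the 10 genes in Tg and 10 in WT were past that fold, against 19.4% and 17.9% of all genes; the clusters were made from all genes, these included. Cluster 11 was as shallow as cluster 1 (medians 1605 and 1383 UMIs, 728 Tg and 32 WT cells), yet its 10 genes summed to 3404 CPM in Tg and 3979 in WT, near the 4216 and 4088 CPM of cluster 10 and above the 1258 and 649.6 CPM of cluster 1.

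Cluster 1 differed from cluster 10 in more than these genes. Alb, the most abundant secreted protein of hepatocytes, had 26628 CPM in cluster 10 and 8008 in cluster 1 of Tg, and 33060 and 5221 in WT. Mitochondrial genes summed to 137364 and 13588 CPM in Tg and 156682 and 12272 in WT. The nuclear RNA Neat1 had 455 and 18.1 CPM in Tg and 519.7 and 17.4 in WT. Fabp1, a fatty acid binding protein made on free ribosomes, ran the other way, with 7909 and 21537 CPM in Tg and 8117 and 24020 in WT. None of the 10 genes that set cluster 1 most apart from other clusters was a hepatocyte marker used for naming, although 5 such markers were enriched in it, and its WT cells had a median of 1318 UMIs, against 4807 in their library.

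Within cluster 1 the libraries also differed: 8 of the 10 genes were past 1.5-fold upward, against 7.72% of all genes, with Hspa5 at 139 CPM in Tg and 56.7 in WT (2.46, 2.05–2.96), Hsp90b1 at 272 and 119 (2.29, 2.02–2.60), Calr at 288 and 141 (2.05), Herpud1 at 164 and 91.5 (1.80) and Canx at 98.0 and 78.2 (1.25). Some secreted hepatocyte proteins were also higher in Tg here, Fgb at 1635 and 676 CPM, Apob at 708 and 295 and Alb at 8008 and 5221, while the nuclear RNA Malat1 had 448 and 2068 CPM and Gsta3 1823 and 2893. In its WT cells, transcripts of other cell types were more abundant: erythroid markers summed to 284 CPM in Tg and 10714 in WT, T cell markers to 22.6 and 259, B cell markers to 13.6 and 177, and LSEC markers to 45.6 and 84.2 (9 of 9 lower in Tg). Kupffer cell markers were near 0 in both, with 6 of 9 at 0 in Tg and 8 of 9 in WT. Their part in the difference was not tested.

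Within cluster 10, 0 of the 10 genes were past 1.5-fold, against 5.89% of all genes upward and 7.4% downward, and Herpud1 was again the most different upward, at 445 CPM in Tg and 344 in WT (1.30, 1.22–1.38). Cluster 1 made up 46.5% of Tg and 98.1% of WT hepatocyte-like cells at 500 to under 1000 UMIs, 67.2% and 96.7% at 2000 to under 5000, and 0.501% and 7.35% at 20000 or more. Without cluster 1, 0 of the 10 genes were past 1.5-fold in the pooled class and Hsp90b1 was at a log2 ratio of -0.028.

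**Figure D4:**
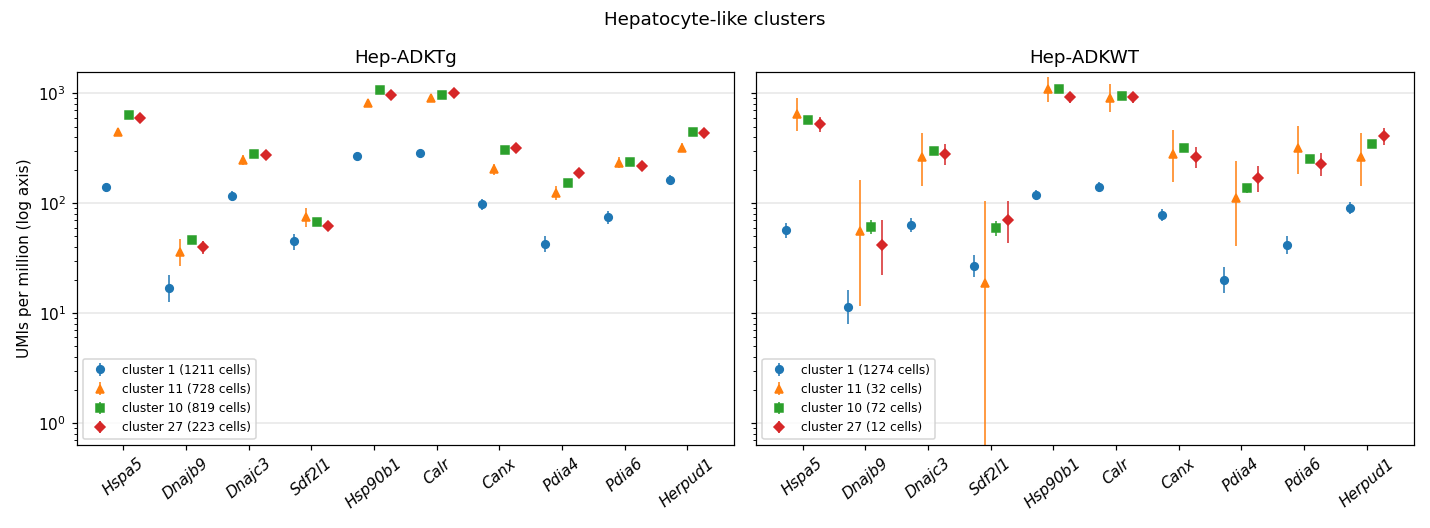
CPM (log axis) of the 10 genes in 4 hepatocyte-like clusters of the Tg library (left) and the WT library (right), with exact 95% Poisson intervals for counting error only. Cluster 1 lies below the others in both libraries (Hspa5 139 and 56.7 CPM, against 641 and 570.2 CPM in cluster 10), except for Sdf2l1 in WT, where the 32 cells of cluster 11 give a wide interval.

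Liver lobules are zoned, with Cyp2e1 and other drug-metabolising genes high near the central vein and Cyp2f2 and others high near the portal tract. Hepatocyte-like cells with at least 2000 UMIs (1834 in Tg, 507 in WT) were ranked by 12 pericentral against 12 periportal genes, and 426 of them lay within 0.1 of a boundary between the 3 groups of equal size into which the score was cut. In Tg, 9 of the 10 genes were lower in the pericentral-ranked than in the periportal-ranked group, as were 28.1% of all genes with at least 50 UMIs in the pair of groups. Hsp90b1 had 822 and 1063 CPM (0.774, 0.750–0.799), Hspa5 484 and 619, and Herpud1 374 and 444. Pdia4 had 153 and 150 CPM, and its interval and that of Sdf2l1 (0.916, 0.810–1.03) included 1. Cluster 1 made up 52.2% of the pericentral-ranked and 12.1% of the periportal-ranked group in Tg, and the score fell with depth (Spearman -0.40 over the scored cells of both libraries, as a description). The pericentral genes of the score included Rgn and Oat, which were also among the 10 genes that set cluster 1 most apart. The part of cluster 1 in the lower pericentral-ranked levels was not tested.

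With at least 5000 UMIs per cell, where cluster 1 made up 18.7% and 3.70% of these groups, 9 of the 10 genes were still lower in the pericentral-ranked group of Tg, as were 32.2% of all genes, with Hsp90b1 at 895 and 1072 CPM. There the intervals of Canx (0.981, 0.925–1.04) and Sdf2l1 (0.945, 0.830–1.07) included 1, and Pdia4 was higher, at 164.5 and 151. With the boundaries drawn again over these deeper cells, 8 of the 10 were lower. In WT, cluster 1 took 96.2% of the pericentral-ranked group, and Hspa5 had 124 and 483 CPM. Cluster 27, the deep cluster of high Cyp2e1 (3309 CPM in Tg, 3570 in WT, against 32.4 and 13.7 in cluster 10), had Pdia4 at 188 CPM and cluster 10 at 152 CPM in Tg, and 169 and 137 CPM in WT. Hsp90b1 was lower in cluster 27, at 968 and 1081 CPM in Tg and 926 and 1094 in WT. Cluster 27 held only 12 WT cells.

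In neutrophil-like cells (197 in Tg, 322 in WT), 8 of the 10 genes had the 50 UMIs required for a ratio, and 6 of these were past 1.5-fold upward, as were 9.93% of all genes, and 0 downward, as were 16%. Hsp90b1 had 237 CPM (197–282) in Tg and 96.5 CPM (79.0–117) in WT, a ratio of 2.46 (1.88–3.21). Calr had 250 and 123 CPM, Dnajc3 116 and 55.6, Herpud1 121 and 63.8, Canx 73.9 and 36.4 and Pdia6 68.3 and 30.1. Hspa5 had 294 and 210 CPM, a ratio of 1.40, and Dnajb9 was lower in Tg, at 26.5 and 35.5 CPM.

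Hepatocyte transcripts moved with this difference. In these neutrophil-like cells 11 of 11 hepatocyte markers were higher in Tg, summing to 13649.6 CPM in Tg and 2072 CPM in WT, or 21.8% and 3.46% of their sum in hepatocyte-like cells of at least 5000 UMIs. A hepatocyte profile scaled by those markers would carry 95.3% of the measured Hsp90b1 in Tg and 29.7% in WT, 82.2% and 20.9% of Calr, 78.2% and 15.6% of Herpud1 and 45.7% and 7.15% of Hspa5. After that profile was subtracted, 0 of the genes were past 1.5-fold upward. The log2 ratio of Hsp90b1 was -2.35, that of Canx -1.53, of Calr -0.87, of Herpud1 -0.77 and of Pdia6 -0.088. Dnajb9 was at -0.75 and Hspa5 at -0.039, while Dnajc3 stayed higher in Tg at 0.49. In Tg only 11.2 CPM of Hsp90b1 and 8.08 CPM of Canx remained, so their ratios rest on few UMIs. Canx and Pdia6 were not among the genes tested after subtraction. With doublets kept, 3 of the genes were past the fold upward. Such a subtraction can take away too much: for Sdf2l1 it passed the measured level in Tg.

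**Figure D5:**
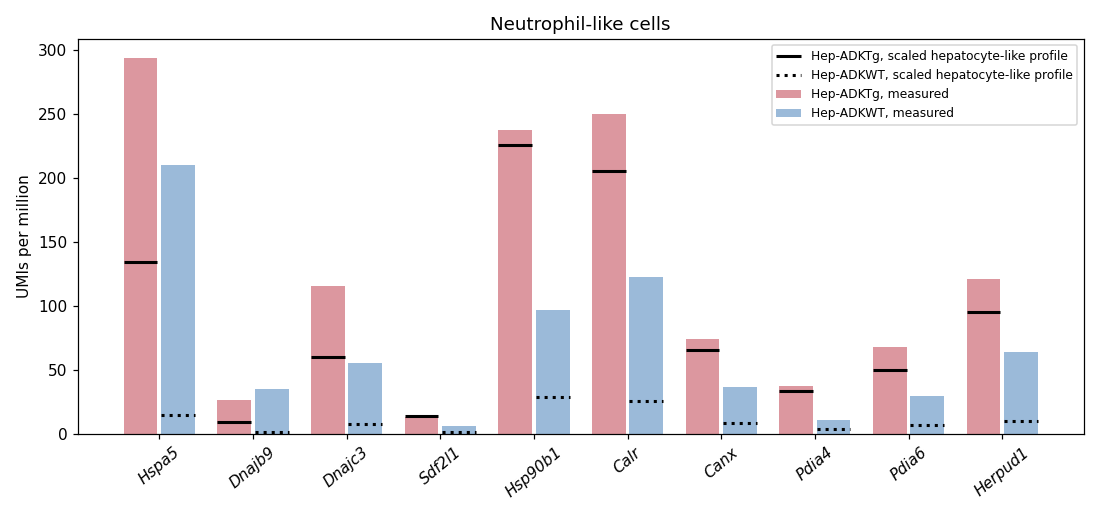
CPM of the 10 genes in neutrophil-like cells of Tg (red bars, left of each pair) and WT (blue bars), with the level a scaled hepatocyte-like profile of the same library would give (solid lines for Tg, dotted lines for WT). For Hsp90b1 the profile reaches 226 of 237 CPM in Tg and 28.7 of 96.5 CPM in WT.

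In the other 9 classes 2 pairs of a gene and a class were past 1.5-fold. These were Sdf2l1 in B cell-like cells, at 30.8 CPM in Tg and 19.7 in WT (1.57, 1.23–1.997), where 8.82% of all genes were past the fold upward, and Herpud1 in erythroid cell-like cells, at 42.5 and 17.2 CPM from 51 and 66 UMIs, where 13.9% were. In the other classes the share of all genes past the fold upward was 14.8% (Kupffer cell-like), 7.32% (LSEC-like), 8.7% (lymphocyte-like), 6.91% (fibroblast-like), 6.41% (monocyte-like), 5.41% (pDC-like) and 9.5% (vascular endothelial cell-like). Downward, where none of the 10 genes was past the fold, it was 61% (erythroid cell-like), 12% (fibroblast-like), 11.7% (pDC-like), 10.4% (vascular endothelial cell-like), 8.96% (monocyte-like), 8.35% (Kupffer cell-like), 7.81% (B cell-like), 7% (LSEC-like) and 5.51% (lymphocyte-like). Hspa5 was higher in Tg in each of these 9 classes. Its ratio ran from 1.07 (0.795–1.41) in erythroid cell-like to 1.32 (1.22–1.42) in B cell-like cells, and in LSEC-like cells it had 359 CPM in Tg and 282 in WT (1.27, 1.20–1.35). In LSEC-like cells Hsp90b1 differed little, at 1259.8 CPM in Tg and 1160.2 in WT (1.09, 1.05–1.12). There Dnajb9 was lower in Tg, at 57.7 CPM against 77.8 (0.742, 0.649–0.848).

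Hepatocyte markers were higher in Tg in these classes too, 11 of 11 in each, summing to 11172 CPM in Tg and 1854 in WT in LSEC-like, 10979.7 and 2297 in B cell-like and 4908 and 911 in fibroblast-like cells. A hepatocyte profile scaled by those markers would carry 30.7% of the Hspa5 of LSEC-like cells in Tg and 4.77% in WT, and 37.6% and 7.64% of that of B cell-like cells. After subtraction the log2 ratio of Hspa5 was 0.11 in LSEC-like (0.35 before) and 0.035 in B cell-like cells (0.40 before). In other classes it moved less, to 0.35 in fibroblast-like and 0.32 in monocyte-like cells (0.36 before in each). It was 0.19 in pDC-like (0.21 before), 0.17 in vascular endothelial cell-like (0.27), 0.16 in Kupffer cell-like (0.21) and 0.13 in lymphocyte-like cells (0.30). In erythroid cell-like cells no Hspa5 was left in Tg. Neither pair above stayed past the fold upward. Sdf2l1 in B cell-like cells was at a log2 ratio of 0.34, and the profile took all of the Herpud1 of erythroid cell-like cells in Tg and 34.3% in WT. Among pairs with counts left in both libraries, 4 were past the fold after subtraction. All were lower in Tg, namely Herpud1 (-0.79) and Canx (-0.64) in B cell-like, Herpud1 (-0.66) in lymphocyte-like and Pdia6 (-2.96) in erythroid cell-like cells. In erythroid cell-like cells the profile passed the measured Tg level of every gene but Pdia6. Of Pdia6 only 1.58 CPM remained in Tg, so its ratio rests on few UMIs. The genes taken to 0 in Tg got no ratio and are not in the 4. In WT some of them kept counts, such as 43.5 CPM of Hspa5 and 61.7 CPM of Calr. In class sums, more cells with a transcript and more transcript per cell cannot be told apart. In pDC-like cells Canx was lower in Tg, at 201 and 253 CPM (0.793, 0.684–0.917), while Hsp90b1 (1197 and 1013 CPM) was higher.

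Across the 26 class sums with at least 50 cells (classes of both libraries, which share their cells' handling and depth), the 10 genes varied together. Calr and Pdia6 were the most alike pair (Pearson r 0.968 of log2 CPM) and Canx and Sdf2l1 the least (0.485). Among 11583 other genes, those with a high mean correlation to the 10 included Erp44 (0.851), Lrrc59, Ssr3, Sec61a1, Lman1, Tmem214, Srpr, Spcs1 and Stt3a (0.831). Sec61a1 is the channel of the translocon, Srpr the receptor that docks ribosomes on the ER, Spcs1 a signal peptidase subunit and Stt3a the catalytic subunit of N-glycosylation. Without the 2 plasma cell-like sums, Vcp led (0.886), the ATPase that extracts proteins for degradation, and Lrrc59 and Stt3a stayed among the first 10.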

How the data were processed

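The deposited values are raw UMI counts per gene and barcode, whole numbers as deposited by the authors. The submitters' processing notes name Cell Ranger 6.1.2, the build GRCm38 (mm10), Seurat 4.0.2 and R 4.1.0, while the matrices carry version 5.0.1, per the file headers. The series text mentions an ambient RNA correction, and the whole-number counts were treated as uncorrected. No source used here says whether counting used strand; Dnajb9, Hsp90b1, Pdia4, Pdia6 and Herpud1 overlap another annotated gene.

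Barcodes entered from 500 UMIs and 200 genes upward, if no more than 20% of UMIs were mitochondrial. Scrublet (scanpy 1.11.5) marked 1 Tg and 0 WT cells by its own threshold, too few to have worked, so cells with a score of 0.2 or more (408 and 483) were removed. The 2000 most variable genes gave 30 principal components, a graph of 15 neighbours and Leiden clusters (leidenalg 0.10.2, resolution 1.0) under Python 3.11.15 with scikit-learn 1.9.0, scipy 1.17.1, numpy 2.4.6 and pandas 2.3.3. Clusters took the class of highest mean marker enrichment with at least 3 enriched markers, and stayed unnamed where depth was low with no marker among the 10 leading genes, where no marker of a class other than hepatocytes was among the 30 leading genes, or where another class's markers led or were also enriched. The study's own cell names may differ from these. The Kupffer cell-like class was cluster 24 alone, named from 5 enriched markers. C1qa was the only Kupffer cell marker among its 10 leading genes, which also held the monocyte marker Cx3cr1, so that name is uncertain. Cluster 0 (3136 Tg and 154 WT cells, median 753 and 758 UMIs) stayed unnamed.

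UMIs were summed per class and library and scaled to CPM of the class total. CPM carry exact Poisson, ratios conditional binomial and shares Clopper-Pearson 95% intervals. Classes of at least 50 cells in each library were compared, and a gene was counted past 1.5-fold only if the class held 50 or more of its UMIs. Cells are not replicates, so no test was made. The 10 genes, the gene lists and the markers were chosen with earlier results of these data known. All 10 genes were named, with up to 4 genes of each list (at least 200 UMIs, by ratio or level) and genes from the 10 most correlated, of which 1 is not reported here. TMM factors (edgeR 4.0.16) and DESeq2 1.42.0 size factors, in R 4.3.3, were alternatives. Promoter windows are from RefSeq (GRCm38.p6), which held all 10 genes.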

Additional observations from a re-analysis of the deposited data

How the results depend on the processing

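No paired analysis was possible because each genotype has 1 library, and leaving out a replicate was not possible for the same reason. Of 1708 values under the alternatives, 1455 stayed within their counting interval, 247 moved beyond it and 6 that were past 1.5-fold changed direction. Of all the values, those under that fold included, 121 changed sign. The 1455 include 120 values from dropping the minimum of UMIs, which changes only the genes counted and cannot move a ratio. In pooled hepatocyte-like cells the number of the 10 genes at least 1.5-fold higher in Tg was 5; it was 9 with edgeR TMM factors, with DESeq2 size factors and with cells thinned to 1000 UMIs, 10 with a mean over cells and with at most 10% mitochondrial UMIs, 3 with at least 1000 UMIs and at resolution 2.0, and 0 without cluster 1, an alternative added after seeing the data. There Hsp90b1 turned to a log2 ratio of -0.028. In neutrophil-like cells the number was 6. It was 3 with thinning and with doublets kept, and 0 after the hepatocyte profile was subtracted. After subtraction Hsp90b1 (-2.35), Canx (-1.53), Calr (-0.87), Herpud1 (-0.77) and Pdia6 (-0.088) turned, and Dnajc3 (0.49) did not. Canx and Pdia6 were not among the genes tested under that setting. Only genes with 50 UMIs under a setting were counted. Before thinning, Canx had 39 UMIs in Tg and 40 in WT and Pdia6 36 and 33, so thinning can also take a gene out of the count. In plasma cell-like cells the number was 1, and 2 with TMM, with DESeq2, without mitochondrial, haemoglobin and immunoglobulin genes, and after subtraction. Of the pairs in the other 9 classes 2 were past the fold. The number was 8 with TMM, 10 with DESeq2, 5 without those gene groups, 14 with a mean over cells and 6 with thinning. It was 1 with the ER genes left out of clustering, and 4 after subtraction, all of them lower in Tg. Pairs that subtraction took to 0 in Tg got no ratio and are not in the 4. With TMM and DESeq2 log2 ratios shifted by 0.33 and 0.31 in hepatocyte-like, 0.44 and 0.45 in plasma cell-like and 0.57 and 0.60 in erythroid cell-like cells, and the median gene moved with them. For these shifts the construction of the scale is the reason; for the other changes the cause was not tested. The counts by depth (9 and 0), by zone (9, 9 and 8), and of genes highest in plasma cell-like cells (7 to 9) stayed within 1.5 times. Vascular endothelial cell-like cells lacked 50 cells in a library with at most 10% mitochondrial UMIs, at least 1000 UMIs, resolution 0.5 or doublets kept, so the count over 9 classes was not made there. The deepest hepatocyte-like cells had too few WT cells at most 10% mitochondrial UMIs or without Ptprc and Stab2, and cells under 5000 UMIs too few without cluster 1. Depth limited Pdia4 and Sdf2l1 in neutrophil-like cells, where they had 20 and 7 UMIs in Tg and 12 and 7 in WT and got no ratio.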

Other observations

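Cluster 0, which stayed unnamed, had 3136 cells in Tg and 154 in WT at medians of 753 and 758 UMIs. Its hepatocyte markers summed to 50799 CPM in Tg and 48283 CPM in WT. The 10 ER genes summed to 2289.9 CPM in Tg and 1868 CPM in WT, with Hsp90b1 at 588 and 359 CPM (1.64, 1.25–2.20) and Hspa5 at 313 and 196 CPM from 809 and 29 UMIs. Dnajb9 was lower in Tg, at 25.2 and 54.1 CPM (0.465, 0.222–1.12) from 65 and 8 UMIs. Of the 10 genes 3 were past 1.5-fold upward and 1 downward, against 17.7% and 17.8% of all genes. Cholangiocyte-like cells (99 in Tg, 35 in WT) had Hspa5 at 341 CPM in Tg and 388 CPM in WT and Hsp90b1 at 651 and 672 CPM. Cluster 25, also unnamed, with 113 Tg and 165 WT cells, had Hspa5 at 455 CPM in Tg and 328 CPM in WT (1.39, 1.26–1.53), Sdf2l1 at 113 and 89.8 CPM and Dnajb9 at 12.7 and 15.4 CPM.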
